A study of Mus musculus with 3 samples.

Results

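The 40 genes described here build, crosslink and shed the outer barrier of the skin. They were taken from a list of mouse symbols matched by Entrez identifier, and all 40 were found among the 24028 identifiers counted. They cover the synthesis and transport of barrier lipids, the transglutaminases, the proteases of desquamation with an inhibitor and a substrate, and secreted proteins of the upper epidermis. Counts came from skin papillomas, benign tumours of the epidermis, that were induced in C57BL/6 mice by the carcinogen DMBA and the promoter TPA. Tg46 mice carry a transgene that drives galectin-7 from the keratin 14 promoter, which is active in basal keratinocytes. Lgals7-/- mice lack galectin-7, a sugar-binding protein of stratified epithelia, and wild-type mice express it from their own gene. All 3 groups received the same DMBA/TPA treatment. Each genotype is represented by 1 library made from 3 pooled tumours, so the differences given here carry no p-value and compare libraries, not conditions. The comparisons ask how barrier genes differ between tumours with extra, absent and endogenous galectin-7.

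In normal epidermis, granular keratinocytes make very long chain fatty acids, join them to sphingoid bases as ceramides, and attach linoleate to form acylceramides that are packed into lamellar granules. Lipoxygenases and a dehydrogenase then modify the linoleate so that the ceramides can be bound to the cornified envelope, a protein shell sealed by transglutaminases. Kallikrein proteases cut the junctions between the dead cells of the surface, and the inhibitor LEKTI, encoded by Spink5, restrains them. Loss of many of these genes causes ichthyosis or a fatal loss of water at birth in people or mice.

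Total counts were 354499 in Tg46, 312600 in Lgals7-/- and 172011 in wild-type, low totals for a transcriptome. A gene at 0 counts could lie at up to 8.95, 9.11 and 17.4 CPM in Tg46, Lgals7-/- and wild-type, where CPM is the count scaled to a fixed library total after normalisation and these limits stand for 3 counts. Intervals and floors cover counting error only. Lgals7 held 4, 2 and 0 counts in Tg46, Lgals7-/- and wild-type, too few to check the genotype labels. Keratinocyte genes were present. Krt14 held 95, 81 and 20 counts, Krt1 held 156, 132 and 21, and Krt10 held 111, 96 and 25. Against the usual order of abundance, Gapdh held 4, 5 and 0 counts and Actb 13, 13 and 3. The sources used here do not say whether counting used strand, so a gene and its neighbour on the opposite strand cannot be told apart where their exons overlap. That applied to 10 of the 40 barrier genes (25%), against 24.4% of all annotated genes. In pooled tumours, fewer cells of a type and less RNA per cell cannot be told apart.

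Together the 40 genes held 871 counts in Tg46, 699 in Lgals7-/- and 284 in wild-type, or 2599, 2123 and 1644 CPM. Their summed level was 1.58-fold higher in Tg46 than in wild-type (95% interval 1.38 to 1.81) and 1.29-fold higher in Lgals7-/- than in wild-type (1.12 to 1.49). Tg46 stood 1.22-fold above Lgals7-/- (1.11 to 1.35). Summed over all 12940 genes tested, the same ratios were 1.09 in Tg46 over wild-type, 0.963 in Lgals7-/- over wild-type and 1.13 in Tg46 over Lgals7-/-, the last within the interval of the barrier genes. The genes differed among themselves. By the call rule given below, Spink5, Sbsn, Tgm1, Slc27a4, Cers3, Elovl4 and Pnpla1 were higher in Tg46 than in wild-type, whereas the summed level of ceramide synthesis genes was not. The 5 genes with the most counts over all libraries were Spink5, Degs2, Abhd5, Lipm and Abca12. With these 5 left out, a choice made after seeing the data, the summed ratios were 1.64 for Tg46 over wild-type and 1.47 for Lgals7-/- over wild-type. For Tg46 over Lgals7-/- the ratio was then 1.12 (0.982 to 1.27), an interval that included 1.

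**Figure D1:**
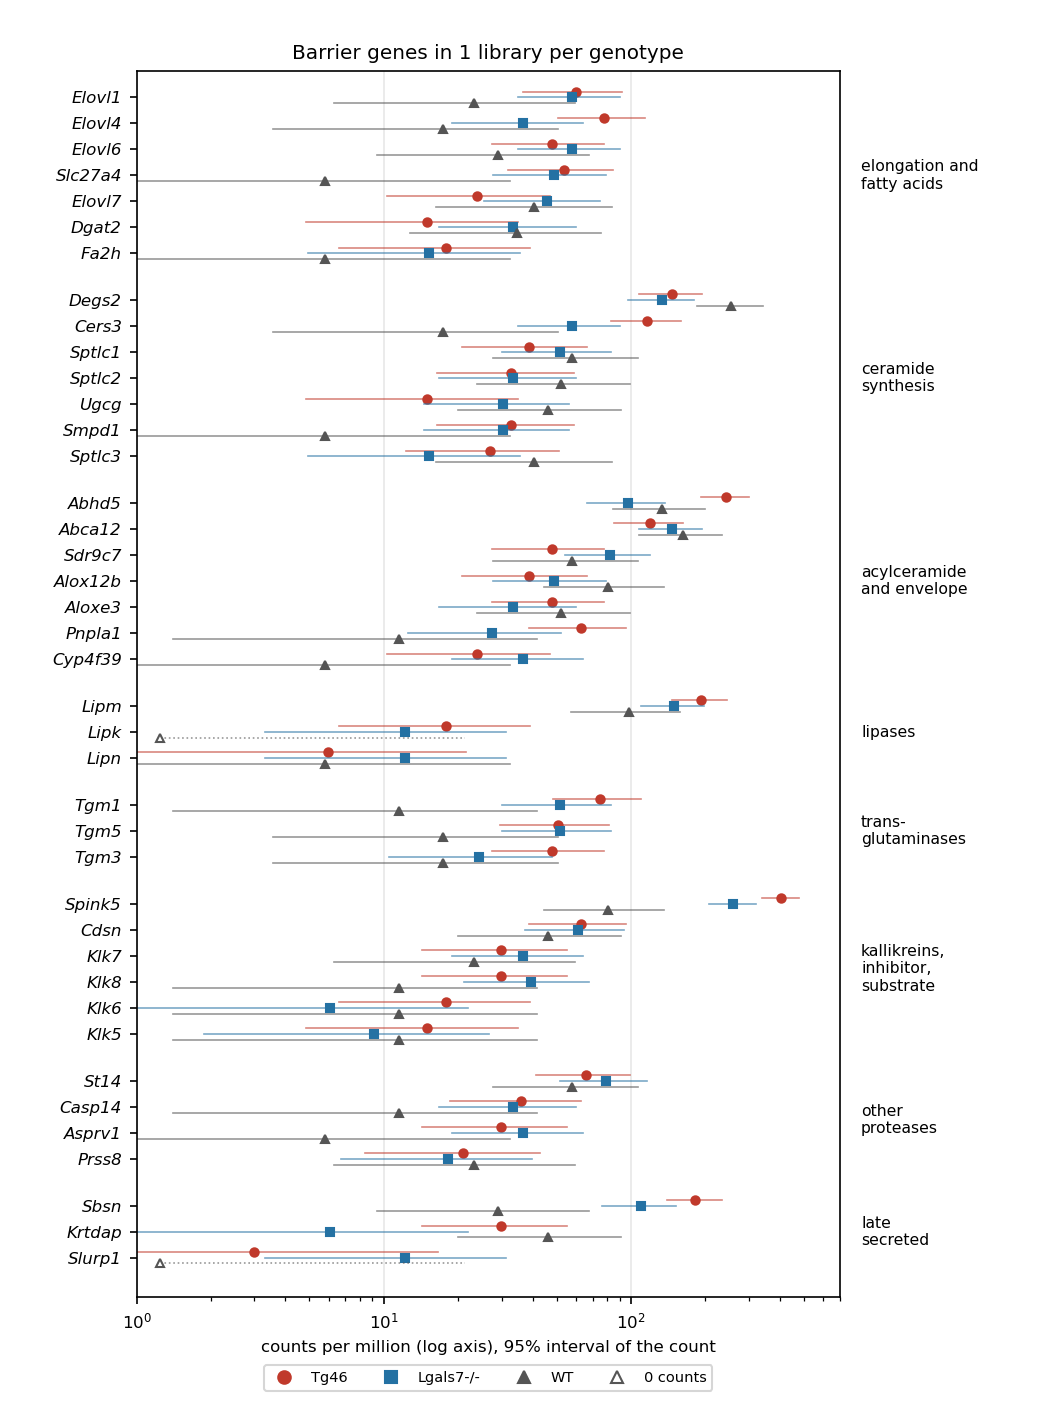
Level of each of the 40 barrier genes in CPM on a log axis, with 1 point per library (Tg46, Lgals7-/- and wild-type from top to bottom within a gene) and lines for the exact 95% interval of the count, some of which run off the left edge. Open symbols mark 0 counts. Spink5 had the highest point, 403 CPM in Tg46, and its wild-type point of 81.0 CPM lay below those of the other 2 libraries, as did the wild-type points of Sbsn, Tgm1, Slc27a4, Cers3 and Elovl4.

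A call required a ratio of scaled counts of at least 2-fold with a 95% interval that excluded 1, in a gene with 10 counts or more in some library. Of the 40 genes, 32 passed that filter. The other 8 were Fa2h, Sptlc3, Lipk, Lipn, Klk5, Klk6, Prss8 and Slurp1. Only 9 of the 32 reached 10 counts in wild-type, so 23 passed through Tg46 or Lgals7-/- alone, which favours calls above wild-type. Of the 7 calls in Tg46 above wild-type, 6 were of that kind, the exception being Spink5. Among genes called in Tg46 over Lgals7-/-, Pnpla1 and Krtdap reached 10 counts in Tg46 alone, which favours calls in that direction. The same limit holds for further genes named below that reached 10 counts only where they were high.

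In Tg46 over wild-type, 7 of the 32 genes were called higher and 0 lower, against 13.7% called higher and 13.9% called lower among all 12940 genes tested. The median log2 ratio was 0.88, against 0.11 over all genes tested. Over the 24 barrier genes past the filter with no opposite-strand exon it was 0.32. Without the filter, over the 38 barrier genes with a count in both libraries, it was 0.53. In Lgals7-/- over wild-type, 4 genes were called higher and 1 lower, against 13.3% and 13.7% of all genes, so the share called higher (12.5%) was near that of all genes. The median log2 ratio here was 0.56, against 0.10, and 0.50 over 38 genes without the filter. Over the 24 genes with no opposite-strand exon it was 0.43. In Tg46 over Lgals7-/-, there were 4 calls higher and 0 lower, beside 8.43% and 7.73% among all genes. The median log2 ratio was 0.04 beside -0.03. With total counts in place of normalised library sizes, Abhd5 was the 1 gene still called there. With 5 counts added, Elovl4, Pnpla1 and Slc27a4 were no longer called in Tg46 over wild-type (4 calls higher, beside 5.09% of all genes), nor Slc27a4 and Tgm1 in Lgals7-/- over wild-type (2 calls higher, beside 4.51%). The median log2 ratios were then 0.15 in Tg46 over wild-type and 0.14 in Lgals7-/- over wild-type, beside -0.22 and -0.21 over all genes. Both comparisons with wild-type use the same wild-type library.

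**Figure D2:**
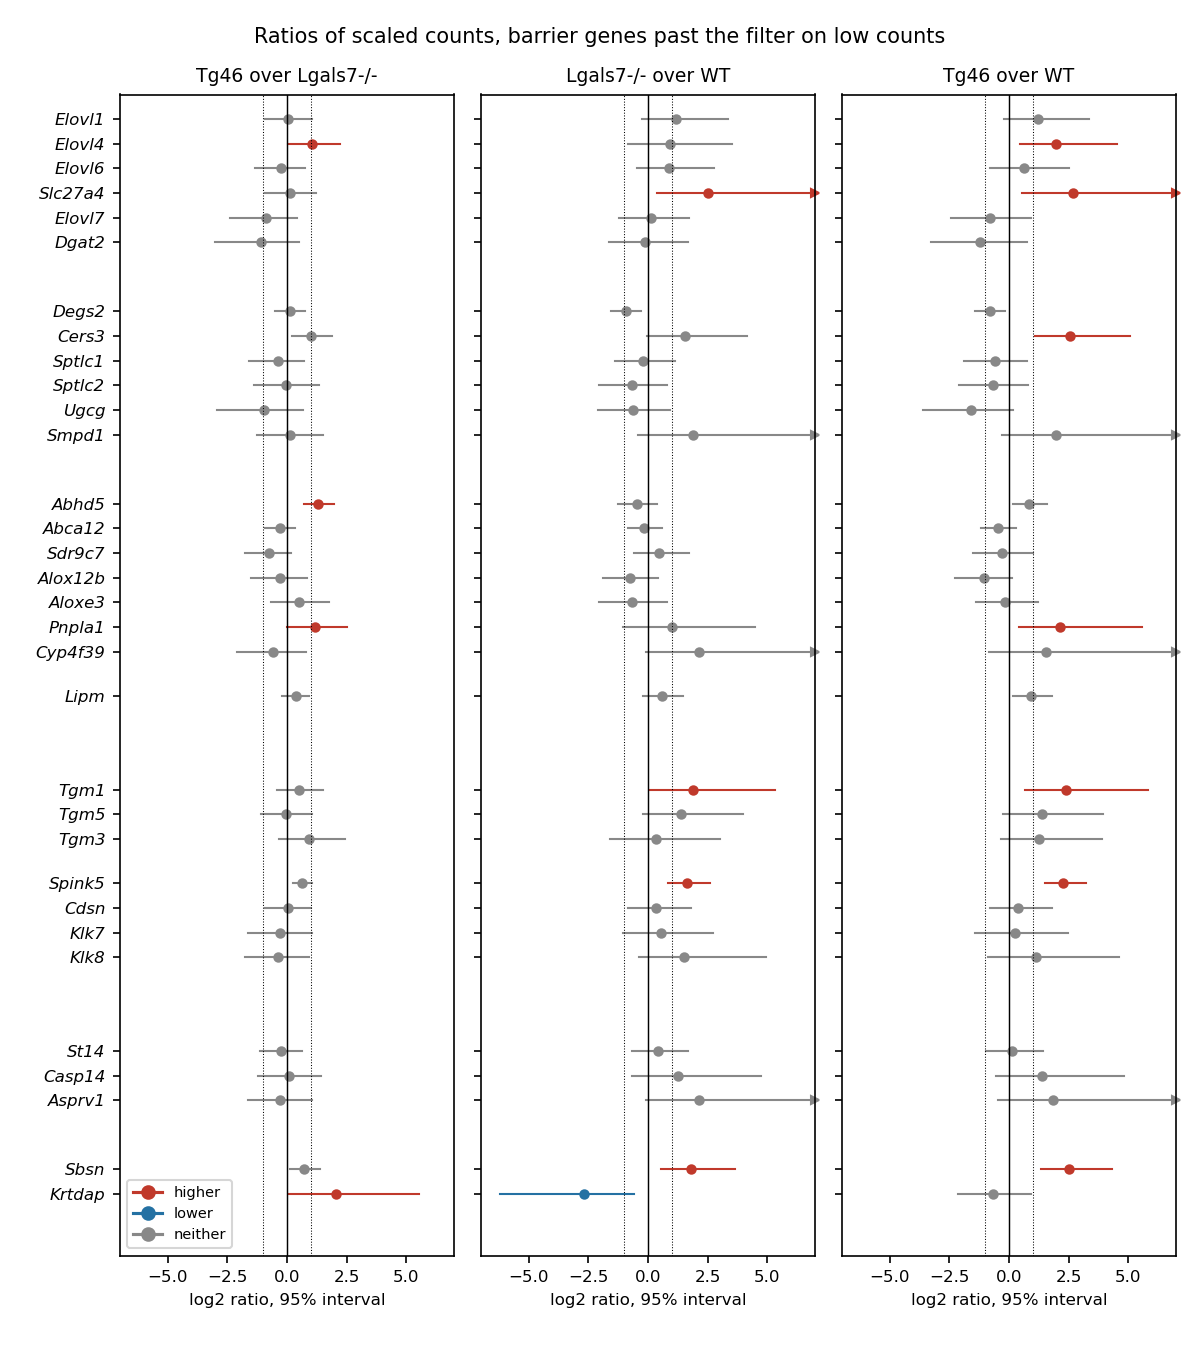
Log2 ratio of scaled counts for the 32 barrier genes past the filter in each comparison, with exact 95% intervals. Arrowheads mark intervals that run past the axis, dotted lines mark 2-fold, red marks genes called higher, blue lower and grey neither. Krtdap is the 1 gene called lower, in Lgals7-/- over wild-type, and in Tg46 over Lgals7-/- most points lie near 0.

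Among the genes of fatty acid elongation and supply, Elovl4 and Slc27a4 stood out. ELOVL4 extends fatty acids to the ultra-long chains found in acylceramides. Elovl4 had 26 counts in Tg46, 12 in Lgals7-/- and 3 in wild-type, or 77.6, 36.5 and 17.4 CPM. Tg46 was highest and wild-type lowest, with a 3.90-fold higher level in Tg46 than in wild-type (1.37 to 23.1) and a 2.08-fold higher level in Tg46 than in Lgals7-/- (1.04 to 4.63). The ratio of Lgals7-/- to wild-type was 1.87 (0.567 to 11.6) and was not called.

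Slc27a4 encodes FATP4, a fatty acid transporter and acyl-CoA synthetase whose loss in mice gives tight, thick skin. It held 18 counts in Tg46 and 16 in Lgals7-/-, against 1 in wild-type. Both ratios to wild-type were called, at 6.36 (1.47 to 387) for Tg46 and 5.77 (1.30 to 352) for Lgals7-/-, with upper bounds that a single wild-type count leaves wide. Between Tg46 and Lgals7-/- the ratio was 1.10 (0.532 to 2.32).

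The other elongases were not called. Elovl1, which makes saturated very long chains and has a 53-base exon overlap with Cdc20, held 20, 19 and 4 counts in Tg46, Lgals7-/- and wild-type. Elovl6, which extends palmitate to stearate, held 16, 19 and 5, and Elovl7 held 8, 15 and 7. Dgat2, a triglyceride synthase, held 5, 11 and 6, and Fa2h, the fatty acid 2-hydroxylase, 6, 5 and 1. Elovl7 and Dgat2 were lowest in Tg46 in CPM, unlike Elovl4. As a group these 7 genes summed to 99 counts in Tg46 and 97 in Lgals7-/-, against 27 in wild-type. Their summed level was 1.89-fold higher than in wild-type in each (1.22 to 3.01 in both).

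Ceramide synthesis showed opposite values at neighbouring steps. Cers3, the ceramide synthase that takes ultra-long acyl chains, had 39 counts in Tg46, 19 in Lgals7-/- and 3 in wild-type. It was 5.82-fold higher in Tg46 than in wild-type (2.13 to 33.9). Its ratio of Tg46 to Lgals7-/- was 1.99 (1.14 to 3.69), just under the 2-fold threshold, and that of Lgals7-/- to wild-type was 2.92 (0.979 to 17.5), with an interval that just included 1. Neither was called, though Cers3 was called in Lgals7-/- over wild-type with DESeq2 size factors, with total counts and in libraries thinned to equal totals.

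Degs2, which hydroxylates ceramides to phytoceramides, went the other way against wild-type. It held 49 counts in Tg46, 44 in Lgals7-/- and 44 in wild-type, and at the smaller wild-type library size these are 146, 134 and 255 CPM. The level was 1.74-fold lower in Tg46 than in wild-type (1.13 to 2.67) and 1.91-fold lower in Lgals7-/- than in wild-type (1.23 to 2.96). Both intervals excluded 1 but neither ratio reached 2-fold. A 278-base stretch of Degs2 exon lies across from Evl, which held 83, 39 and 30 counts in Tg46, Lgals7-/- and wild-type.

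The 3 subunits of serine palmitoyltransferase, which makes the sphingoid base, were not called in any comparison. Sptlc1 held 13, 17 and 10 counts in Tg46, Lgals7-/- and wild-type, Sptlc2 held 11, 11 and 9, and Sptlc3, below the filter, held 9, 5 and 7. In CPM all 3 were highest in wild-type. So was Ugcg, the glucosylceramide synthase that prepares ceramides for the lamellar granule, with 5, 10 and 8 counts. Smpd1, the acid sphingomyelinase that frees ceramides outside the cell, had 11 and 10 counts in Tg46 and Lgals7-/- against 1 in wild-type, with a ratio of Tg46 to wild-type of 3.95 (0.824 to 244). The summed level of the 7 genes was 0.861 times that of wild-type in Tg46 (0.650 to 1.15) and 0.743 times in Lgals7-/- (0.555 to 0.998).

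**Figure D3:**
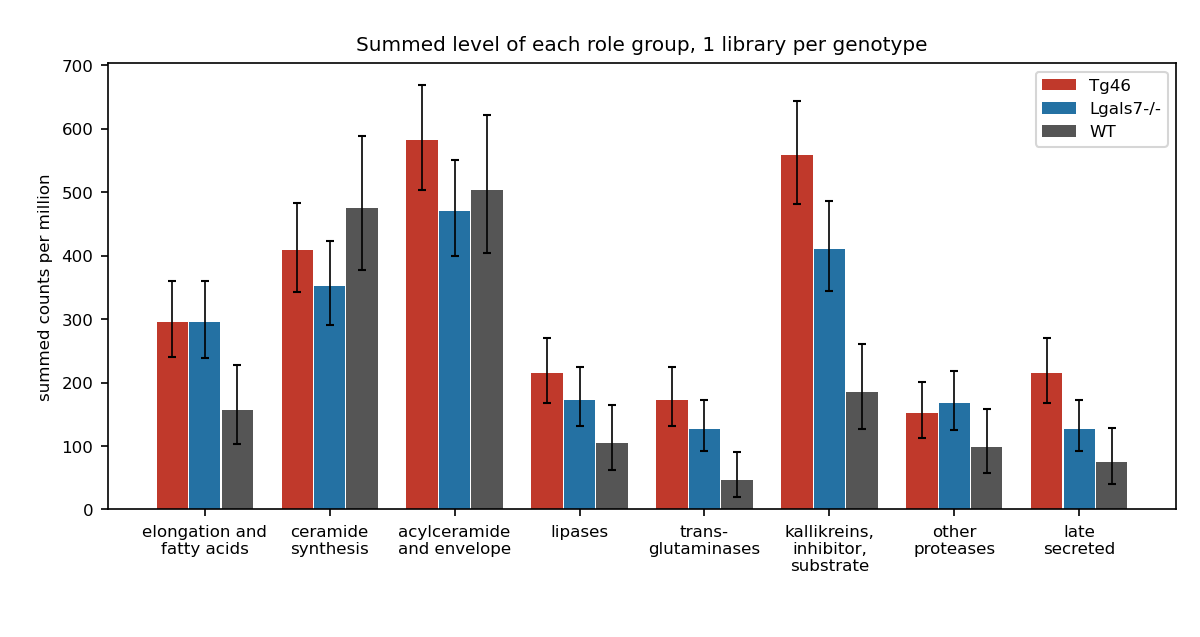
Summed CPM of the genes in each role, for Tg46, Lgals7-/- and wild-type from left to right, with exact 95% Poisson intervals of the summed counts. The kallikrein, inhibitor and substrate bars are 558, 410 and 185 CPM, whereas the ceramide synthesis bars are 409, 352 and 475 CPM.

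For the acylceramides, Pnpla1 and Abhd5 were called between Tg46 and Lgals7-/-. PNPLA1 is the transacylase that adds linoleate to the ω-hydroxyceramide, and ABHD5 is a coactivator that brings it to lipid droplets. The patatin-like gene Pnpla1 had 21 counts in Tg46, 9 in Lgals7-/- and 2 in wild-type. Its level was 2.22-fold higher in Tg46 than in Lgals7-/- (1.01 to 5.68) and 4.43-fold higher in Tg46 than in wild-type (1.32 to 47.6). Abhd5 had 81 counts in Tg46, 32 in Lgals7-/- and 23 in wild-type, or 242, 97.2 and 133 CPM. It was 2.46-fold higher in Tg46 than in Lgals7-/- (1.63 to 3.87), and its ratio to wild-type was 1.79 in Tg46 (1.13 to 3.02) and 0.726 in Lgals7-/- (0.414 to 1.31). Both genes have exons across from another gene. Pnpla1 overlaps Pnpla1os over 644 bases, and Abhd5 overlaps A730085K08Rik over 950 bases, which held 8, 17 and 7 counts in Tg46, Lgals7-/- and wild-type.

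Cyp4f39, whose human counterpart CYP4F22 adds the ω-hydroxyl group, held 8, 12 and 1 counts in Tg46, Lgals7-/- and wild-type and was not called. Among the lipoxygenases, Alox12b, which oxidises the linoleate of acylceramides, had 13, 16 and 14 counts, and Aloxe3, which acts on its product, 16, 11 and 9. Sdr9c7, the dehydrogenase of the next step, had 16, 27 and 10. Abca12, the transporter that loads lamellar granules and the gene mutated in harlequin ichthyosis, had 40, 48 and 28, with ratios to wild-type of 0.733 in Tg46 (0.443 to 1.24) and 0.893 in Lgals7-/- (0.553 to 1.49). In CPM, Abca12, Alox12b and Aloxe3 were each highest in wild-type. The 7 genes of acylceramides and the lipid envelope summed to 195 counts in Tg46, 155 in Lgals7-/- and 87 in wild-type, with ratios to wild-type of 1.16 in Tg46 (0.893 to 1.51) and 0.935 in Lgals7-/- (0.715 to 1.23).

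Of the epidermal lipases, which lie side by side on chromosome 19, Lipm carried nearly all of the counts. Lipm had 64 counts in Tg46, 49 in Lgals7-/- and 17 in wild-type, with ratios to wild-type of 1.90 in Tg46 (1.12 to 3.54) and 1.48 in Lgals7-/- (0.856 to 2.80), neither past 2-fold. Its exons overlap those of Ankrd22 over 1219 bases, and Ankrd22 held 25, 25 and 9 counts. Lipk had 6, 4 and 0 counts and Lipn 2, 4 and 1, so neither could be compared at this depth.

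The transglutaminases, which form the isopeptide bonds of the cornified envelope, were all lowest in wild-type. Tgm1, the membrane-bound enzyme mutated in lamellar ichthyosis, had 25 counts in Tg46, 17 in Lgals7-/- and 2 in wild-type. Both ratios to wild-type were called, at 5.26 for Tg46 (1.61 to 56.1) and 3.67 for Lgals7-/- (1.06 to 39.8). Tgm3, which is abundant in hair follicles as well as in the upper epidermis, had 16, 8 and 3 counts, and Tgm5, mutated in acral peeling skin, had 17, 17 and 3. Neither was called, with ratios of Tg46 to wild-type of 2.43 (0.787 to 14.7) for Tgm3 and 2.58 (0.845 to 15.6) for Tgm5. Summed over the 3 enzymes there were 58 counts in Tg46 and 42 in Lgals7-/-, against 8 in wild-type. That is 3.74-fold above wild-type in Tg46 (1.78 to 9.07) and 2.76-fold in Lgals7-/- (1.28 to 6.80). Tgm1 has a 182-base overlap with Gm49067.

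Spink5 was the most counted barrier gene and differed most firmly from wild-type. It encodes LEKTI, whose loss causes Netherton syndrome, with kallikreins unchecked. It had 135 counts in Tg46, 85 in Lgals7-/- and 14 in wild-type, or 403 CPM (338 to 477), 258 CPM (206 to 319) and 81.0 CPM (44.3 to 136). None of these intervals overlapped. The level was 4.82-fold higher in Tg46 than in wild-type (2.86 to 9.34) and 3.10-fold higher in Lgals7-/- than in wild-type (1.80 to 6.08). Tg46 was 1.56-fold above Lgals7-/- (1.18 to 2.07), short of the 2-fold threshold. No exon of Spink5 overlaps one on the opposite strand.

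The kallikrein genes of the list had far fewer counts than Spink5. Klk7, the chymotrypsin-like enzyme that cuts corneodesmosin, had 10, 12 and 4 counts in Tg46, Lgals7-/- and wild-type. Klk5, the trypsin-like enzyme that activates it, had 5, 3 and 2, Klk6 had 6, 2 and 2, and Klk8, a protease of the upper epidermis that shares 382 exon bases with 2310002F09Rik, had 10, 13 and 2. Their sum was 31, 30 and 10 counts, with ratios to wild-type of 1.60 in Tg46 (0.764 to 3.65) and 1.57 in Lgals7-/- (0.749 to 3.61), intervals that included 1. Cdsn, which encodes the adhesive protein corneodesmosin, had 21, 20 and 8 counts, with ratios to wild-type of 1.30 in Tg46 (0.576 to 3.53) and 1.27 in Lgals7-/- (0.554 to 3.44).

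Other proteases of the barrier were not called. St14 encodes matriptase, a membrane protease that acts with prostasin (Prss8). St14 had 22, 26 and 10 counts in Tg46, Lgals7-/- and wild-type and Prss8 had 7, 6 and 4. Casp14, the caspase that degrades filaggrin, had 12, 11 and 2, and Asprv1, the aspartic protease that processes profilaggrin, had 10, 12 and 1. The ratio of Tg46 to wild-type was 2.58 for Casp14 (0.689 to 28.5) and 3.61 for Asprv1 (0.733 to 224). Both intervals included 1.

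The late secreted proteins held a contrast between neighbouring genes, at low counts in Krtdap. Sbsn (suprabasin) and Krtdap (keratinocyte differentiation-associated protein) are secreted by suprabasal keratinocytes, and their genes lie 31.8 kb apart on chromosome 7 in the same orientation, at positions 30751471 to 30756134 and 30787896 to 30791097 (mm10). Sbsn had 61 counts in Tg46, 36 in Lgals7-/- and 5 in wild-type. It was 5.76-fold higher in Tg46 than in wild-type (2.55 to 20.1) and 3.48-fold higher in Lgals7-/- than in wild-type (1.48 to 12.3). Krtdap had 10 counts in Tg46, 2 in Lgals7-/- and 8 in wild-type. Lgals7-/- was the low library, 6.48-fold below wild-type (1.52 to 73.7), and Tg46 was 4.13-fold above Lgals7-/- (1.05 to 46.1). Krtdap reached 10 counts in Tg46 alone, which favours a call of Tg46 above Lgals7-/-. Its call below wild-type rests on 2 against 8 counts, with neither library at 10. Between Tg46 and wild-type the Krtdap ratio was 0.637 (0.229 to 1.88). Slurp1, a secreted ligand of nicotinic receptors whose loss causes palmoplantar keratoderma, had 1, 4 and 0 counts.

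The promoters of Sbsn and Krtdap are shown because these neighbours differed in their calls, and those of Tgm1, Pnpla1 and Cers3 because each was called in Tg46 over wild-type and holds a match to a motif searched. Each is the 200 bases before the RefSeq transcription start, 5′ to 3′ on the gene's strand (GRCm38.p6, the assembly of mm10), and capitals mark motif matches on either strand. Gene positions in this report came from GENCODE models, whose starts differ from the RefSeq starts for Krtdap and Tgm1. The Krtdap window ends inside the gene span given above. The Tgm1 window lies within its GENCODE gene span (55700009 to 55713926). The windows are chr7:30751271-30751470 (plus strand) for Sbsn, chr7:30787705-30787904 (plus) for Krtdap, chr14:55713493-55713692 (minus) for Tgm1, chr17:28858211-28858410 (plus) for Pnpla1 and chr7:66743304-66743503 (plus) for Cers3.
Sbsn: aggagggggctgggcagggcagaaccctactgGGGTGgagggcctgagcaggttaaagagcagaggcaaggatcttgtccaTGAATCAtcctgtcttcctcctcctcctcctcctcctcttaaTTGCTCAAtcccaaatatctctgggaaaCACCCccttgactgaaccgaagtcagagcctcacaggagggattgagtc
Krtdap: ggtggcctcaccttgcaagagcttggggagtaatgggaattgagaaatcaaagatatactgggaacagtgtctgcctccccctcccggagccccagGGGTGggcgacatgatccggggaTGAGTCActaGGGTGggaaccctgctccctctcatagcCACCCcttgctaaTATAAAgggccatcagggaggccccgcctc
Tgm1: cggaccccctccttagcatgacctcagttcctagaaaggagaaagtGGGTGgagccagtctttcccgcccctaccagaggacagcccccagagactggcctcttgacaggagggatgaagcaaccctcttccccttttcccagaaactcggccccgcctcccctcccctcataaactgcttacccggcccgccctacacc
Pnpla1: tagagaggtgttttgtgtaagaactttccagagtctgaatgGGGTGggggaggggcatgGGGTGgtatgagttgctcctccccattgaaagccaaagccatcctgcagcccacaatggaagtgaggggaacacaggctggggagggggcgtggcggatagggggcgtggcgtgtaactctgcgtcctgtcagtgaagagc
Cers3: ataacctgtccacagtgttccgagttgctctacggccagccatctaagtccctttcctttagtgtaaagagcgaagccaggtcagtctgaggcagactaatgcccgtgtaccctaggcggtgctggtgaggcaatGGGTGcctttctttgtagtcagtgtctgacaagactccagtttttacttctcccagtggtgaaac

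Both strands were searched for 6 motifs. The TATA box, which positions the start of transcription, was spelled TATAAA. The motif of AP-1, a factor that TPA induces, was TGANTCA. KLF factors were searched as CACCC, which reads GGGTG on the other strand, and C/EBP factors, which act in keratinocyte differentiation, as TTGCNNAA. For GRHL factors the letters were AACNNGTT and for GATA factors they were AGATAA. No matches of different motifs overlapped in the promoters of the called genes. Sbsn held 1 AP-1 match, 119 to 113 bases before the start, 1 C/EBP match and 2 KLF matches. Krtdap held 1 AP-1 match, 81 to 75 bases before the start, 3 KLF matches and a TATA box 30 to 25 bases before the start. Tgm1 and Cers3 held 1 KLF match each and Pnpla1 held 2. The windows of Elovl4, Slc27a4 and Abhd5, with 74%, 60% and 66.5% of G and C, held none of the 6 motifs. The 5 windows shown ranged over 51% to 61% of G and C. Of 32 barrier genes with a promoter in the table, 3 held AP-1 (9.38%, against 5.48% of 32851 promoters), 20 held KLF (62.5% against 45.5%), 4 held C/EBP (12.5% against 7.47%) and 3 a TATA box (9.38% against 9.96%). GATA was found in 1 (3.13% against 7.80%) and GRHL in 0 (2.85% of all promoters). These matches describe letters only.

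**Figure D4:**
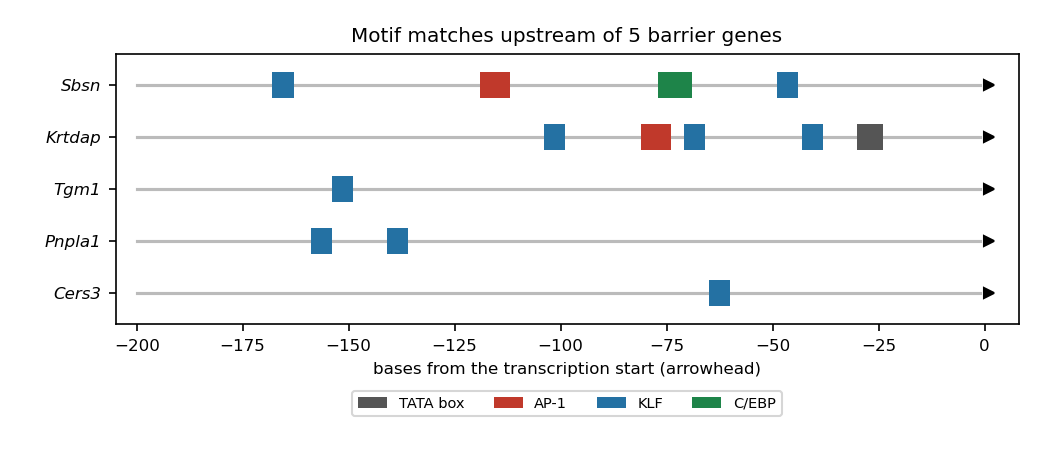
Positions of motif matches in the 200 bases upstream of 5 barrier genes, in bases from the transcription start, with colours for each motif. Sbsn and Krtdap each carry 1 AP-1 match, at 119 and 81 bases upstream. All 5 carry at least 1 KLF match, a motif held by 45.5% of 32851 promoters. Tgm1, Pnpla1 and Cers3 were chosen for display partly because they hold a match.

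Barrier genes also lie together at other places. Aloxe3 and Alox12b, 7.87 kb apart on chromosome 11, had 29 counts in Tg46, 27 in Lgals7-/- and 23 in wild-type, with ratios to wild-type of 0.650 (0.363 to 1.18) in Tg46 and 0.616 (0.340 to 1.12) in Lgals7-/-. The 3 lipase genes within 114 kb of chromosome 19 summed to 72, 57 and 18 counts, 2.06-fold above wild-type in Tg46 (1.22 to 3.67).

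Per length of exon, the barrier genes were spread widely in every library. The highest was Spink5 in Tg46 and Lgals7-/-, at 84.2 and 54.0 CPM per kb of exon, and Degs2 in wild-type, at 98.6. The median over the 40 genes was 12.0 in Tg46, 11.2 in Lgals7-/- and 7.82 in wild-type, against 6.60, 6.78 and 5.69 over all annotated genes. Chemosensory receptor genes, which skin is not known to use widely, stood at 2.37, 2.56 and 3.25 CPM per kb in Tg46, Lgals7-/- and wild-type when 1490 of them were pooled. In Tg46 39 of the 40 barrier genes lay above that level and in Lgals7-/- all 40 did, whereas in wild-type 32 did. The 8 at or below it in wild-type were Slc27a4, Fa2h, Smpd1, Cyp4f39, Pnpla1, Lipk, Lipn and Slurp1. Single receptor genes spread around the pooled level, with a 95th percentile of 10.4, 13.2 and 20.1 CPM per kb in Tg46, Lgals7-/- and wild-type. In Lgals7-/- and wild-type that percentile lay above the median of the barrier genes. The exact 95% interval of the count lay wholly above the pooled receptor level for 34, 30 and 18 barrier genes in Tg46, Lgals7-/- and wild-type. Among the 7 genes called in Tg46 over wild-type, Spink5 was the 1 whose wild-type interval lay above it. What part the low wild-type counts have in these calls was not tested.

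**Figure D5:**
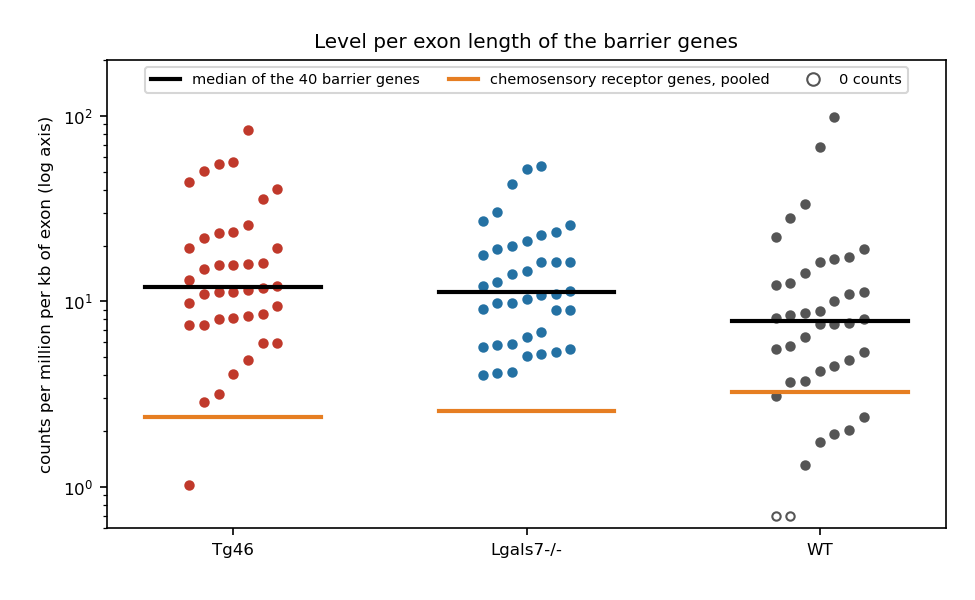
CPM per kb of exon for the 40 barrier genes in each library on a log axis, with their median (black) and the pooled level of chemosensory receptor genes (orange). The medians are 12.0, 11.2 and 7.82 in Tg46, Lgals7-/- and wild-type, and 8 wild-type points, 2 of them at 0 counts, are at or below the orange line.

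Other keratinocyte genes also differed from wild-type. Krt1 and Krt10, the keratins of the spinous layer and 2 of the 6 suprabasal genes listed, summed to 267 counts in Tg46, 228 in Lgals7-/- and 46 in wild-type, which is 2.99-fold above wild-type in Tg46 (2.18 to 4.19) and 2.60-fold in Lgals7-/- (1.89 to 3.65). For each count at Krt1 or Krt10 there were 3.26 barrier gene counts in Tg46, 3.07 in Lgals7-/- and 6.17 in wild-type. Relative to these 2 keratins the summed barrier genes were not higher in Tg46 or Lgals7-/- than in wild-type. The other 4 suprabasal genes, given below, did not share the higher level of Krt1 and Krt10 in Tg46, so the outcome depends on the reference genes. The 6 basal keratinocyte genes (Krt5, Krt14, Krt15, Col17a1, Itga6 and Itgb4) summed to 824, 723 and 504 CPM in Tg46, Lgals7-/- and wild-type. The 6 suprabasal genes (Krt1, Krt10, Krt77, Krt2, Dsg1a and Dsc1) summed to 939.9, 948 and 469 CPM. Without Krt1 and Krt10, a set chosen after seeing the data, the other 4 summed to 143, 255 and 203 CPM, with a ratio of Tg46 to wild-type of 0.707 (0.448 to 1.13) and of Lgals7-/- to wild-type of 1.26 (0.840 to 1.93). Summed levels were 451, 434 and 318 CPM for 4 of 5 granular layer genes (Lor, Flg2, Ivl and Hrnr). Hair follicle genes (6 of 7) summed to 779 CPM in Tg46, 4250 in Lgals7-/- and 1262 in wild-type, and Tchh, the inner root sheath protein trichohyalin, held 209 of 261, 1202 of 1399 and 160 of 218 counts. Tgm3, found in follicles too, was at 47.7, 24.3 and 17.4 CPM. The sums for 7 sebaceous gland genes were 2113, 945 and 1036 CPM, of which Far2, with exons across from Ergic2 and Far2os2, held 661 of 708, 252 of 311 and 151 of 179 counts. Awat2, a sebaceous marker, was at 0 in Tg46, and Mc5r and Scd3 were at 0 in wild-type. The 5 adipocyte genes summed to 140.2, 103 and 52.1 CPM, with Plin1 at 0 in wild-type. The 6 fibroblast genes summed to 436, 401 and 365 CPM, with Lum at 0 in wild-type, 4 endothelial genes to 173, 179 and 162, 6 immune genes to 328, 286 and 324 and 4 muscle genes to 137, 137 and 197. The part of cell type makeup in the differences at barrier genes was not tested.

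Further genes of the same pathways did not move as 1 group. Of 34 other lipid barrier genes, 26 passed the filter, with 4 calls higher and 6 lower in Tg46 over wild-type, 4 higher and 5 lower in Lgals7-/- over wild-type and 1 each way in Tg46 over Lgals7-/-. Their median log2 ratios were -0.11, -0.37 and -0.21 in these comparisons, beside 0.11, 0.10 and -0.03 over all genes. Without the filter, over all 34 genes, they were 0.02, 0.23 and -0.31, beside -0.01, -0.04 and -0.03 over all identifiers. The sign against wild-type thus depended on the filter. Of all genes tested, 13.7%, 13.3% and 8.43% were called higher in the same comparisons and 13.9%, 13.7% and 7.73% lower. Hacd3, a dehydratase of the elongation cycle, was 3.67-fold higher in Lgals7-/- than in wild-type (1.28 to 21.8), and Elovl2, another elongase, 4.72-fold higher (1.02 to 290.0). Kdsr, which reduces the first sphingoid intermediate, had 14 counts in Tg46 and 20 in Lgals7-/- against 46 in wild-type, and was 6.22-fold lower in Tg46 (3.44 to 12.6) and 4.32-fold lower in Lgals7-/- (2.54 to 7.82). Acer1, an epidermal ceramidase that overlaps AC073683.1, was 7.54-fold lower in Tg46 than in wild-type (2.69 to 33.7), and Hsd17b12, an elongation reductase, 8.92-fold lower (2.33 to 99.1). Sult2b1, the cholesterol sulfotransferase, had 10 counts in Tg46 and 0 in wild-type, at least 1.72-fold higher against the floor of 3 counts, and has exons across from Gm31597 and Lmtk3. Between Tg46 and Lgals7-/-, Sqle, of cholesterol synthesis, was 2.71-fold higher (1.53 to 5.24) and Hmgcs1, of the same pathway and across from Gm48342, 2.70-fold lower (1.20 to 7.27).

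Among 5 other transglutaminases, Tgm4, a prostate enzyme with exons across from Zdhhc3, was the 1 called, at 2.58-fold higher in Tg46 than in wild-type (1.70 to 4.20). That is 20% of the 5, beside 13.7% of all genes called higher there. Of 20 other desquamation genes, 15 passed the filter, with 1 call higher and 1 lower in Tg46 over Lgals7-/- and 1 higher in each comparison with wild-type. Each is 6.67% of the 15, beside 8.43% and 7.73% of all genes called higher and lower in Tg46 over Lgals7-/-. In Lgals7-/- and Tg46 over wild-type, 13.3% and 13.7% of all genes were called higher. Klk10 was 2.05-fold higher in Tg46 than in Lgals7-/- (1.31 to 3.33), with 61 counts against 29, and Dsg1a, a desmosomal cadherin cut during desquamation, 5.83-fold lower (2.43 to 20.8), with 5 counts against 31. Ctsd, the lysosomal protease cathepsin D, had 15 counts in each of Tg46 and Lgals7-/- and 0 in wild-type, at least 2.58-fold and 2.62-fold higher.

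Of 13 transcription factors that act in barrier formation, 12 passed the filter, with 3 calls higher and 0 lower in Tg46 over Lgals7-/-, 1 higher and 2 lower in Lgals7-/- over wild-type and 3 higher and 2 lower in Tg46 over wild-type. Of all genes tested, 8.43%, 13.3% and 13.7% were called higher in these comparisons and 7.73%, 13.7% and 13.9% lower. The 3 called higher in Tg46 over Lgals7-/- were Klf4, Cebpb and Grhl3. These passed the filter through Tg46 alone, which favours calls in that direction. Pparg passed through wild-type alone, which favours calls below wild-type. Klf4, which is needed for the barrier in mice, had 32 counts in Tg46, 7 in Lgals7-/- and 3 in wild-type, a ratio of Tg46 to Lgals7-/- of 4.26 (1.95 to 12.1) and of Tg46 to wild-type of 4.79 (1.72 to 28.1). Grhl3, an activator of Tgm1 in mice, had 20, 8 and 5 counts and was 2.37-fold higher in Tg46 than in Lgals7-/- (1.04 to 6.45). Cebpb, with exons across from Tmem189, had 23, 8 and 0 counts, 2.72-fold higher in Tg46 than in Lgals7-/- (1.22 to 7.30) and at least 3.95-fold above wild-type. Gata3, across from Gm13256, had 27 and 25 counts in Tg46 and Lgals7-/- against 2 in wild-type, ratios of 5.67 (1.75 to 60.4) and 5.35 (1.64 to 57.2). Pparg, a lipid-sensing receptor of sebocytes and adipocytes, had 2, 2 and 18 counts, 14.4-fold lower in Tg46 than in wild-type (4.18 to 155) and 14.1-fold lower in Lgals7-/- than in wild-type (4.11 to 152). Ppara was 2.99-fold lower in Lgals7-/- than in wild-type (1.30 to 7.51), with 10 counts against 16.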

How the data were processed

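RNA from papillomas of 3 genotypes was sequenced, with 3 pooled tumours per library, per the labels' protocols. The authors deposited raw counts, as whole numbers, for each Entrez identifier. The build is mm10, per the submitters' processing notes. The sources used here name no aligner, counter or annotation. Symbols came from RefSeq (23975 of 24028 identifiers) and exon lengths, positions and overlaps from GENCODE models (23710). Library sizes were scaled with TMM factors of edgeR 4.0.16 in R 4.3.3 (0.945 in Tg46, 1.05 in Lgals7-/-, 1.00 in wild-type). These were estimated over the 12940 genes that reached 10 counts in some library, the filter used for calls. Each single-gene ratio had 0.5 counts added to both libraries. Intervals are exact Clopper-Pearson intervals of the pair of counts at 95%, and of single counts exact Poisson intervals. A quasi-likelihood test needs replicates and could not be run. Folds against 0 counts are set at a floor of 3 counts in that library. They leave out counting error in the other library, so the lower 95% limit of the ratio is given beside them. Genes at or below both floors have no fold.

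Every barrier gene was reported. Those called in any comparison have full values, and further genes of the pathways were named where called, up to 4 per list and comparison by size. One gene that this rule names is not reported here. The members and lists were chosen with earlier results of these data known. Ratios and intervals were tested on simulated Poisson counts, the error model that the intervals assume. Known folds were placed only at genes with an expected 10 counts or more in the smaller library. Recovery of folds was thus not tested at lower counts, which most barrier genes had in wild-type. Alternatives tried were scaling by total counts or by DESeq2 1.42.0 size factors, other filters, 5 added counts, other call thresholds, thinned libraries and genes with no opposite-strand exon. Python 3.11.15, numpy 2.4.6, scipy 1.17.1, pandas 2.3.3 and matplotlib 3.10.9 were used. Cers1, Sts, Flg and Krt85 from the lists were not analysed here.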

Additional observations from a re-analysis of the deposited data

How the results depend on the processing

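No paired analysis was possible because there is 1 library of each genotype. All 3 summed ratios stayed above 1 under each alternative run, with or without Spink5 (1.18, 1.19 and 1.41 without it in Tg46 over Lgals7-/-, Lgals7-/- over wild-type and Tg46 over wild-type, a choice made after seeing the data). In Tg46 over Lgals7-/- all genes tested summed to 1.13, which lies within the interval without Spink5 (1.06 to 1.31). The summed ratio there was 1.11 in thinned libraries (0.963 to 1.27), an interval that included 1. For Tg46 over Lgals7-/-, scaling by total counts moved the summed ratio to 1.10 (0.994 to 1.22) and the median log2 ratio of all genes tested to -0.18 (-0.03 with TMM), and left 1 gene called higher (Abhd5, beside 5.85% of all genes). Calls higher there were also 2 with 5 counts added (6.67% of all genes), 1 with a 4-fold threshold (Krtdap, 2.51%) and 1 in libraries thinned to equal totals (Abhd5, 7.31%). Among 24 genes free of opposite-strand exons, 2 were called higher (Elovl4 and Krtdap), beside 8.43% of all genes with or without such exons. The 2-fold threshold alone gave 1 call lower (Dgat2, beside 12.8%). For Lgals7-/- over wild-type, calls higher were 2 with 5 counts added (4.51% of all genes), 12 by 2-fold alone (25.3%) and 1 at 4-fold (9.21%). Calls lower were 0 of 22 with a mean of at least 10 counts (12.8% of all genes) and 0 of 19 in thinned libraries (14.3%). Krtdap fell below the filter in both. The summed ratio was 1.53 in thinned libraries. For Tg46 over wild-type, calls higher were 4 with 5 counts added (5.09% of all genes) and 15 by 2-fold alone (25.6%), and calls lower 3 by 2-fold alone (18.2%) and 1 in thinned libraries (Degs2, 13.7%). Where no cause follows from the alternative itself, the cause was not tested. With DESeq2 size factors there were 3, 5 and 7 calls higher among 32 genes in Tg46 over Lgals7-/-, Lgals7-/- over wild-type and Tg46 over wild-type. Beside these, 8.13%, 14.5% and 14.6% of all genes were called higher. All 64 recomputed ratios of called genes kept their direction. They reuse the counts that chose these genes, so that outcome was largely set in advance. In thinned libraries the intervals included 1 for Elovl4 (0.876 to 9.68), Pnpla1 (0.495 to 9.07) and Krtdap (0.440 to 219) in Tg46 over Lgals7-/-. So did that of Pnpla1 (0.788 to 40.8) in Tg46 over wild-type. The other thinned intervals of called genes excluded 1. Sizes fell with 5 counts added. In Tg46 over wild-type Slc27a4 fell to 1.98, Cers3 to 2.84, Sbsn to 3.40, Tgm1 to 2.21, Elovl4 to 1.998 and Pnpla1 to 1.91. In Lgals7-/- over wild-type Slc27a4 fell to 1.84, Sbsn to 2.15 and Tgm1 to 1.65, and Krtdap was 0.283 times wild-type. In Tg46 over Lgals7-/- Krtdap fell to 2.10. Depth limits the wild-type values most, where 31 of the 40 genes held fewer than 10 counts.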
